A study of Mus musculus with 5 samples.

Results

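The genes described here are 10 of the 17818 gene symbols measured in mouse hearts. They encode the 3 TGF-beta ligands (Tgfb1, Tgfb2, Tgfb3), the 3 TGF-beta receptors (Tgfbr1, Tgfbr2, Tgfbr3), 3 latent TGF-beta binding proteins (Ltbp1, Ltbp2, Ltbp3) and the inhibitory SMAD Smad7. They were chosen by symbol and not by a rule on their levels, though earlier results of these data were known. All 10 passed the filter on low values that left 12734 genes. Messenger RNA was sequenced from heart tissue of male mice that had undergone bone marrow transplantation, a model of clonal hematopoiesis in which blood cells carry a mutation. The groups were Tet2+/- with oridonin, a plant diterpenoid (2 libraries), Tet2+/- with vector (2 libraries), and wild type (WT) with vector (1 library). The labels give a treatment of 2 months for each library, and the design text a sampling time of 12 months after transplantation. Sample titles, however, end in 1 month or 2 month within each Tet2+/- group, and in 1 month for WT. That title number was used here as the replicate number. Whether it stands for a length of treatment cannot be told from the labels, so replicates may differ in this. Whether Tet2+/- describes the donor marrow, the host or both is not given in the labels, nor are the strain and the age of the mice. The questions are how TGF-beta genes differed between Tet2+/- and WT hearts, and between Tet2+/- hearts with and without oridonin.

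TGF-beta is secreted in a latent form, wrapped by its own propeptide and tied to the matrix by a latent TGF-beta binding protein. Once integrins or proteases release it, the ligand joins the type II and type I receptors, which phosphorylate SMAD2 and SMAD3, and these enter the nucleus with SMAD4. In the heart this pathway is known for turning fibroblasts into matrix-producing cells during fibrosis, with Tgfb1 as the best-studied ligand. Smad7 is induced by the pathway and blocks the type I receptor, as a feedback brake.

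Library totals lay between 14574828 and 15535785 counts, so that a floor of 3 counts stood at 0.193 to 0.206 CPM (counts scaled to a common library total). Each deposited Tet2+/- column was a blend on the log2 scale, with a weight of 0.75 for the library and 0.25 for its fellow replicate, and the values given here have it undone. The WT column was also fitted as a blend of 2 sets of counts, which was not undone, and it was used as deposited, as 1 sample without replicates. Counts given for WT are therefore blended values rounded to whole numbers. Markers of ventricular muscle summed to 48000 to 59900 CPM with 0 of 8 at zero in any library. Tet2 itself was at 9.43 and 17.9 CPM with oridonin, 19.2 and 7.76 CPM in Tet2+/- hearts with vector and 15.6 CPM in WT, so its message did not separate the genotypes. One library stood apart: Tet2+/- vector replicate 1 held 1150 CPM of the 7 atrial muscle markers, against 117 CPM in vector replicate 2, 44.7 to 52.1 CPM in the oridonin libraries and 79.8 CPM in WT. Its platelet markers summed to 47.8 CPM and its nerve and glia markers to 19.5 CPM, against at most 17.6 and 8.2 CPM in the other 4 libraries. For the 10 genes and some list medians, results that rest on that library are given with and without it. For single genes outside the 10, fold changes are given with all libraries only. Nothing in the labels says how replicates were drawn, so each p reflects the spread of these libraries alone, which may be technical, with 2 residual degrees of freedom. In whole tissue, fewer cells of a type and less RNA per cell cannot be told apart.

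**Figure D1:**
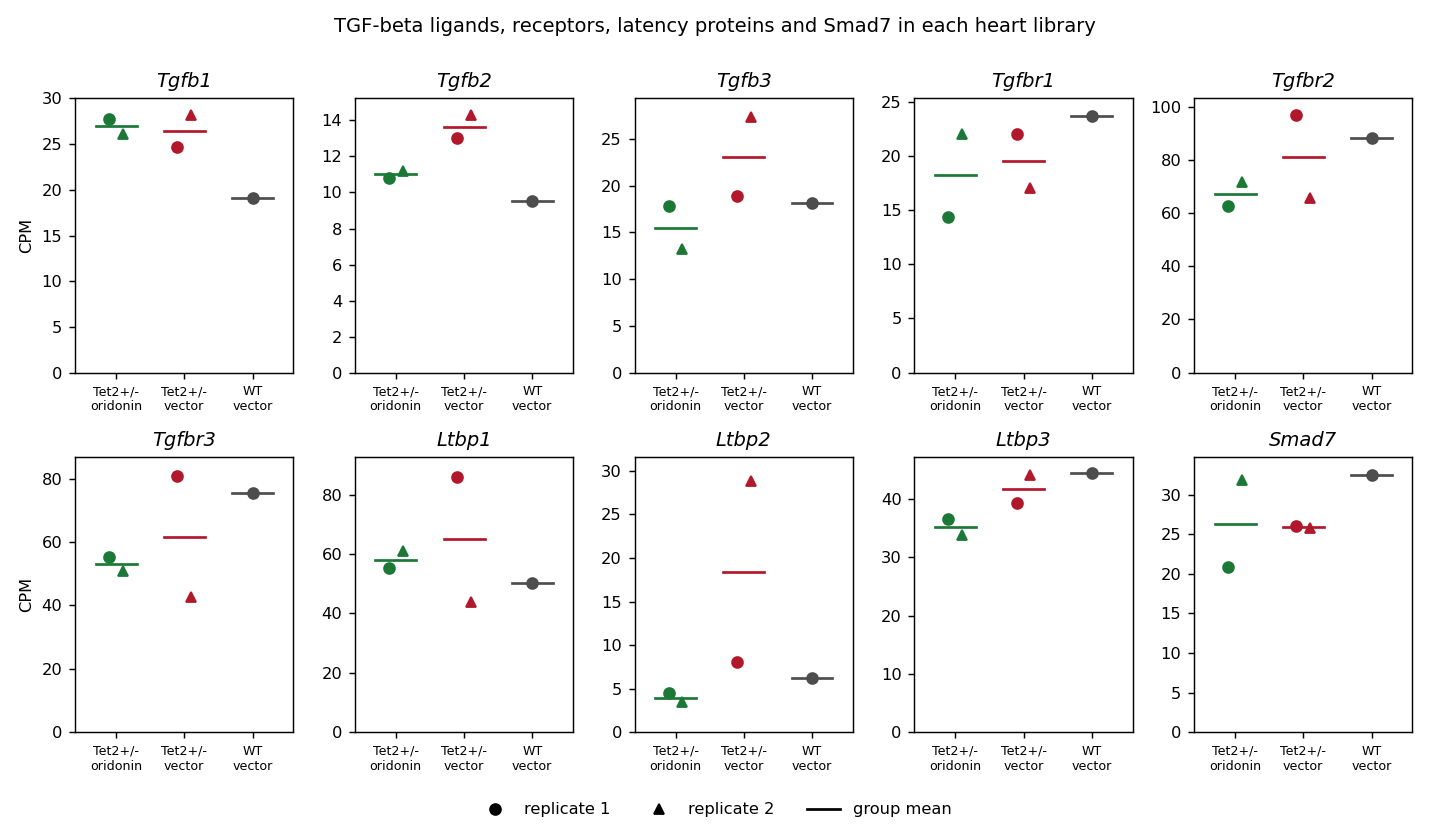
Level of each of the 10 genes in every library, in CPM, for Tet2+/- oridonin (n = 2), Tet2+/- vector (n = 2) and WT vector (n = 1) hearts; points are libraries and the line is the group mean, or the single value in WT. Ltbp2 shows the widest gap between the vector replicates, with 8.05 and 28.8 CPM.

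Of the ligands, Tgfb1 and Tgfb2 were higher in every Tet2+/- heart than in the WT heart, while Tgfb3 and Tgfb2 were lower in both oridonin hearts than in both vector hearts. None of these differences passed a false discovery rate (FDR) of 0.05 in limma. Tgfb1 (chromosome 7, 25687002 to 25705077, plus strand; GRCm38, GENCODE vM21), which platelets and immune cells release in large amounts, was at 27.8 and 26.1 CPM with oridonin, 24.7 and 28.2 CPM with vector and 19.1 CPM in WT. The Tet2+/- groups overlapped each other and both lay above the WT value. Vector hearts stood 0.46 above WT on the log2 scale (standard error 0.24, adjusted p = 0.59), and oridonin hearts 0.49 (adjusted p = 0.816). Between oridonin and vector the log2 difference was 0.03, with a 95% interval of -0.45 to 0.51 that leaves room for a change of either sign. Platelet markers summed to 15.9 and 17.6 CPM with oridonin, 47.8 and 16.6 CPM with vector and 8.83 CPM in WT, over the 6 of 7 listed genes in the table, of which 3 passed the filter and 0 were at zero. Pf4, platelet factor 4, held much of the sum, with 196 and 167 counts with oridonin, 330 and 168 counts with vector and 94 counts in WT. Of the 6 genes, 4 were higher in every Tet2+/- library than in WT, while Gp9 and Treml1 were not. Macrophage and monocyte markers summed to 471 and 462 CPM with oridonin, 775 and 494 CPM with vector and 432 CPM in WT over 14 genes, with 0 at zero, and 8 of the 14 were higher in every Tet2+/- library than in WT. The share of all genes higher in every Tet2+/- library than in WT was not counted beside these 2 lists. Over all genes tested, 35.3% were higher in both vector libraries than in WT, and 31.9% in both oridonin libraries. The part of these cell types in the Tgfb1 level was not tested.

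Tgfb2 (chromosome 1, 186622792 to 186705989, minus strand), the ligand known for its role in heart valve formation, was at 10.8 and 11.2 CPM with oridonin, 13.0 and 14.3 CPM with vector and 9.51 CPM in WT. The 3 groups did not overlap, with the vector hearts highest and the WT heart lowest. Its log2 fold change was 0.52 for Tet2+/- vector over WT, standard error 0.27 (adjusted p = 0.588) and -0.31 with a standard error of 0.22 for oridonin over vector (adjusted p = 1). On the deposited blended values, whose replicates were drawn together, the test of vector against WT passed for Tgfb2 (adjusted p = 0.0471) and Tgfb1 (adjusted p = 0.0474) at the same fold changes.

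Tgfb3 (chromosome 12, 86056745 to 86079041, minus strand), expressed by mesenchymal cells, was at 17.8 and 13.2 CPM with oridonin, 18.9 and 27.3 CPM with vector and 18.1 CPM in WT. Both oridonin values lay below both vector values, by a narrow margin in replicate 1. The log2 fold change of oridonin over vector was -0.57 with a standard error of 0.28 (unadjusted p = 0.0874, adjusted p = 1). Without vector replicate 2 it was -0.30, and without vector replicate 1 it was -0.83. Vector over WT stood at 0.33 with all libraries, at 0.07 without vector replicate 2 and at 0.59 without vector replicate 1. Genes on the opposite strand share 12.4% of the exon bases of Tgfb3 and 9.34% of those of Ltbp2. Strand handling is not stated in the labels, so reads there cannot be assigned with certainty, although D030025P21Rik opposite Ltbp2 had at most 5 counts.

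The promoters of Tgfb1 and Tgfb2 are shown because these ligands differed in their order across the groups, and that of Ltbp2 because it had the largest difference among the 10 genes. Each line is the 250 bases before the annotated start, 5′ to 3′ on the gene's strand, from RefSeq (GRCm38.p6), which held promoters for 7 of the 10 genes. Capitals mark CAGAC or its reverse complement GTCTG (the core of a SMAD element), the GC box GGGCGG or CCGCCC, and TATAAA.
Tgfb1, chr7:25686752-25687001, plus strand: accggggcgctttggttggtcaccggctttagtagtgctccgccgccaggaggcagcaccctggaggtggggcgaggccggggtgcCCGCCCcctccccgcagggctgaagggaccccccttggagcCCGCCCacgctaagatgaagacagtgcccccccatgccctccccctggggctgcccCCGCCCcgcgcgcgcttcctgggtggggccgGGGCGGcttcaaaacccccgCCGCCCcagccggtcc
Tgfb2, chr1:186705990-186706239, minus strand: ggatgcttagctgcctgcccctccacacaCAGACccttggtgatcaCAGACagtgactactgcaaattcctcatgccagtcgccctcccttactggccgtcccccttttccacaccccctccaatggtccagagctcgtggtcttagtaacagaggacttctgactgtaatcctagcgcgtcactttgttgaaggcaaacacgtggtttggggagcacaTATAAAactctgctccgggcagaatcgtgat
Ltbp2, chr12:84876492-84876741, minus strand: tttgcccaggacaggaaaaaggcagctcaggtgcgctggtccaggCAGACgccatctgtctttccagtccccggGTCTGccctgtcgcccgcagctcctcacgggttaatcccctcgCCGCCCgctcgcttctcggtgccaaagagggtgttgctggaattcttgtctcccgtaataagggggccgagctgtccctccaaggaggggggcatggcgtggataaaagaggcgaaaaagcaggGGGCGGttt

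The Tgfb1 window held 5 GC boxes and 0 SMAD cores, at a GC content of 75.2% against a median of 52.4% over all 32851 promoters in the table. In Tgfb2 there were 2 SMAD cores, 221 and 204 bases before the start, and a TATA box at 31 bases. Ltbp2 carried 2 SMAD cores, 205 and 176 bases before the start, and 2 GC boxes. Over all promoters of that length, 42.2% held a SMAD core, 32.7% a GC box and 12.4% TATAAA on either strand, so each of these motifs is common. The AP-1 motif TGANTCA, searched in the same way and present in 6.75% of promoters, had 0 matches in these 3 windows. These matches are letters in a window and were not read as binding sites.

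Per kilobase of annotated exon, which allows genes to be compared, Tgfb2 was the lowest ligand in all 5 libraries. It stood at 1.87 and 1.93 CPM per kilobase with oridonin, 2.25 and 2.47 with vector and 1.64 in WT. Tgfb1 was at 5.51 and 5.18 CPM per kilobase with oridonin, 4.89 and 5.6 with vector and 3.79 in WT. Tgfb3 was at 5.27 and 3.89 CPM per kilobase with oridonin, 5.59 and 8.06 with vector and 5.34 in WT. Tgfb1 thus exceeded Tgfb3 in both oridonin libraries, and Tgfb3 exceeded Tgfb1 in both vector libraries and in WT, a change of order that was not tested. The ranges of both genes over the 5 libraries overlapped.

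**Figure D2:**
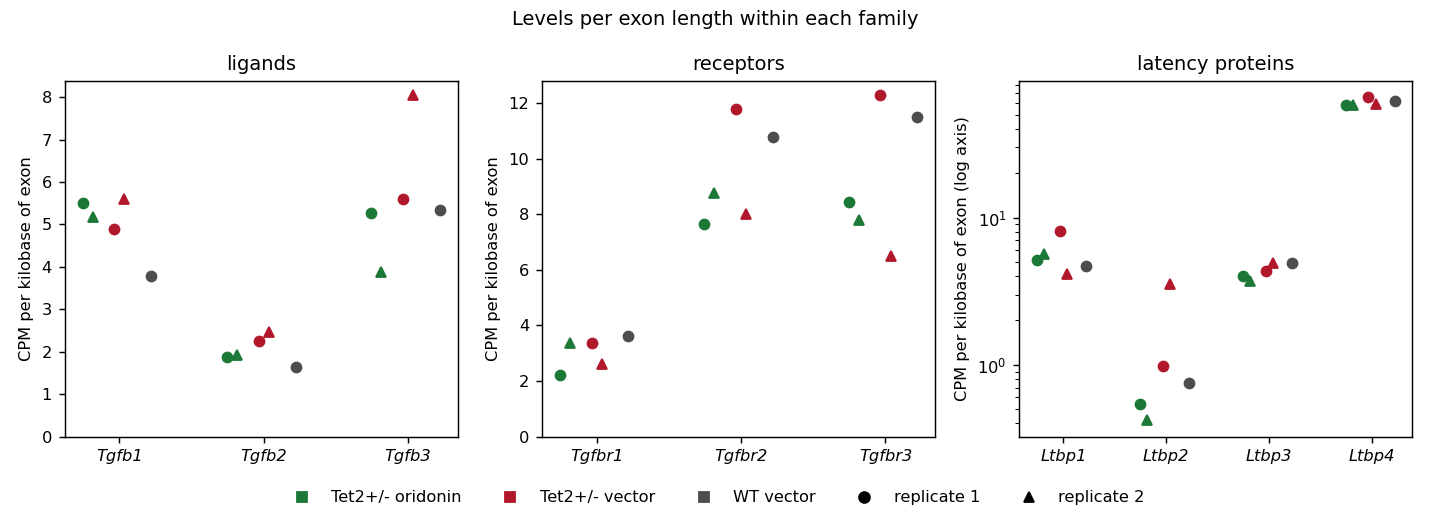
Levels in CPM per kilobase of exon in each library for ligands, receptors and latency proteins (the last on a log axis, with Ltbp4 added for scale); colours are groups (2, 2 and 1 libraries) and shapes are replicates. Tgfb2, Tgfbr1 and Ltbp2 are the lowest of their families in every library, and Ltbp4 is highest at 57.9 to 65.9.

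The receptors were lower in both oridonin hearts than in the WT heart, and their vector replicates differed by more than the oridonin and vector means did. Tgfbr1 (chromosome 4, 47353222 to 47414931, plus strand), the signalling type I receptor, was at 14.4 and 22.0 CPM with oridonin, 22.0 and 17.0 CPM with vector and 23.7 CPM in WT. Its oridonin replicates differed by 0.61 on the log2 scale, more than 85.1% of all genes tested. Tgfbr2 (chromosome 9, 116084293 to 116175360, minus strand), the type II receptor that binds the ligand first, was at 62.7 and 71.7 CPM with oridonin, 96.9 and 65.6 CPM with vector and 88.4 CPM in WT. Tgfbr3 (chromosome 5, 107106570 to 107289629, minus strand), the co-receptor betaglycan that presents Tgfb2, was at 55.3 and 51.0 CPM with oridonin, 80.7 and 42.6 CPM with vector and 75.3 CPM in WT.

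For Tgfbr3 the vector replicates lay on either side of the WT value and of both oridonin values. For Tgfbr2 they lay on either side of the WT value and of one oridonin value, with the other oridonin value below both. The log2 fold changes of oridonin over vector were -0.12 for Tgfbr1, -0.25 for Tgfbr2 and -0.14 for Tgfbr3, each with an adjusted p = 1. Over WT they were -0.41, -0.40 and -0.50 for the same receptors, with adjusted p values of 0.862, 0.846 and 0.854. Without vector replicate 1, the library with atrial markers, the values of oridonin over vector were 0.07, 0.03 and 0.32. The sign for all 3 receptors in that comparison therefore depended on this library, and that of Tgfbr1 also on oridonin replicate 1. Smooth muscle and pericyte markers summed to 1250 and 1150 CPM with oridonin, 1740 and 1230 CPM with vector and 1600 CPM in WT over 8 genes, with at most 1 at zero. Rgs5 held the largest part of the sum in every library. Acta2, smooth muscle actin, was at 480 CPM in vector replicate 1 against 105 CPM in WT, and 3 of the 8 genes were highest in vector replicate 1. Myh11, Rgs5, Pdgfrb and Abcc9 were highest in WT, with Rgs5 at 666 CPM in vector replicate 1 and 869 CPM in WT. Their part in the receptor levels was not tested. Tagln, a smooth muscle gene of that list, had 14 and 0 counts with oridonin, 12 and 12 with vector and 1 in WT, below the filter on low values. Per kilobase of exon, Tgfbr1 was the lowest of the 3 receptors in every library, at 2.21 to 3.62 CPM per kilobase, against 6.51 to 12.3 for Tgfbr2 and Tgfbr3.

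Ltbp2 had the largest difference of the 10 genes. Ltbp2 (chromosome 12, 84783212 to 84876532, minus strand) encodes a protein of elastic microfibrils that, unlike the other LTBPs, does not bind latent TGF-beta. It had 65 and 50 counts with oridonin (4.44 and 3.43 CPM), 125 and 442 counts with vector (8.05 and 28.8 CPM) and 93 counts in WT (6.19 CPM). Both oridonin values lay below both vector values and below WT, and both vector values lay above WT, with vector replicate 2 far above the rest. The log2 fold change of oridonin over vector was -1.95 with a standard error of 0.59 and a 95% interval of -3.39 to -0.52. Its unadjusted p of 0.0159 ranked 118 among all genes tested and did not pass (adjusted p = 1).

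The size of the Ltbp2 difference depended on 1 library. The vector replicates of Ltbp2 differed by 1.84 on the log2 scale, more than 98.1% of genes tested, where the median gene differed by 0.35. Without vector replicate 2 the log2 fold change was -1.04 for oridonin over vector and 0.38 for vector over WT, and without vector replicate 1 these were -2.87 and 2.21, against -1.95 and 1.29 with all libraries. The unadjusted p for vector over WT was 0.123 (adjusted p = 0.608). Markers of valve and tendon-type matrix, of which 11 of 12 listed genes were measured, summed to 28.9 and 27.9 CPM with oridonin, 74.7 and 95.9 CPM with vector and 36.6 CPM in WT. At most 2 of them were at zero in a library. Of these 11 genes, 4 were higher in vector replicate 2 than in replicate 1, as Ltbp2 was, and the others were not. On the side of Ltbp2, Comp, a tendon and cartilage matrix protein, was at 3.28 and 1.58 CPM with oridonin, 20.0 and 45.3 CPM with vector and 2.77 CPM in WT. Scx, a tendon transcription factor, was at 4.38 and 3.22 CPM with oridonin, 2.19 and 8.35 CPM with vector and 7.53 CPM in WT. Tnmd had 26 counts in vector replicate 2 and at most 1 elsewhere. On the other side, Fmod had 195 and 169 counts in vector replicates 1 and 2, while Cytl1 was at 11.8 and 4.7 CPM and Cilp2 at 4.89 and 1.37 CPM. The part of such tissue in the Ltbp2 level was not tested.

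By the root mean square difference of gene-centred log2 CPM over the 5 libraries, the genes most like Ltbp2 among 12195 were Ptn (0.18), Pdgfrl (0.29), Col8a2 (0.35) and Klk1b26 (0.40). Ptn, a secreted heparin-binding growth factor, was at 1.5 and 1.1 CPM with oridonin, 2.32 and 9.46 CPM with vector and 2.62 CPM in WT. Col8a2, a short-chain collagen, was at 0.479 and 0.274 CPM with oridonin, 1.09 and 4.83 CPM with vector and 1.02 CPM in WT. All 4 were highest in vector replicate 2. For Tgfb3, the gene with the second-largest range of group means, the nearest patterns were those of Uchl1 (0.05), Cd63 (0.05), Stab2 (0.06) and Spsb2 (0.06). Cd63, a tetraspanin of late endosomes, was at 110 and 84.9 CPM with oridonin, 119 and 166 CPM with vector and 104 CPM in WT.

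Ltbp1 (chromosome 17, 75005568 to 75392512, plus strand), the prototype carrier of latent TGF-beta, was at 55.2 and 60.9 CPM with oridonin, 86.1 and 43.9 CPM with vector and 50.1 CPM in WT. The vector replicates lay on both sides of the oridonin and WT values and differed by 0.97 on the log2 scale, more than 89.9% of genes tested. The log2 fold change of oridonin over vector was -0.08 (95% interval -0.89 to 0.72) and became 0.40 without vector replicate 1. Against WT, oridonin hearts stood at 0.21 (log2, standard error 0.40, adjusted p = 0.932).

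Ltbp3 (chromosome 19, 5740904 to 5758532, plus strand), which carries latent TGF-beta in bone and other tissues, was at 36.5 and 33.8 CPM with oridonin, 39.3 and 44.2 CPM with vector and 44.4 CPM in WT. Both oridonin values lay below both vector values and the WT value, and both vector values lay below WT, one of them by a narrow margin. The log2 fold change was -0.25 with a standard error of 0.19 for oridonin over vector (adjusted p = 1) and -0.34 with a standard error of 0.23 for oridonin over WT (adjusted p = 0.846). For vector over WT it was -0.09, and 0.00 when counts of the mitochondrial genome were left out of the totals. Ltbp4, the fourth family member and not one of the 10, was at 377 and 374 CPM with oridonin, 426 and 385 CPM with vector and 399 CPM in WT. Per kilobase of exon it stood at 57.9 to 65.9 CPM, against 4.11 to 8.06 for Ltbp1, 3.72 to 4.89 for Ltbp3 and 0.419 to 3.52 for Ltbp2. The ranges of Ltbp1 and Ltbp3 overlapped.

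Smad7 (chromosome 18, 75367529 to 75395935, plus strand) was at 20.9 and 31.8 CPM with oridonin, 26.1 and 25.8 CPM with vector and 32.5 CPM in WT. The oridonin replicates lay on both sides of the vector values, and all 4 Tet2+/- values lay below WT. Vector hearts stood at -0.33 against WT (log2, standard error 0.31, adjusted p = 0.762), and the log2 fold change of oridonin over vector was -0.01 with a 95% interval of -0.63 to 0.61. That of oridonin over vector changed sign, at 0.05, under median-of-ratios scaling.

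**Figure D3:**
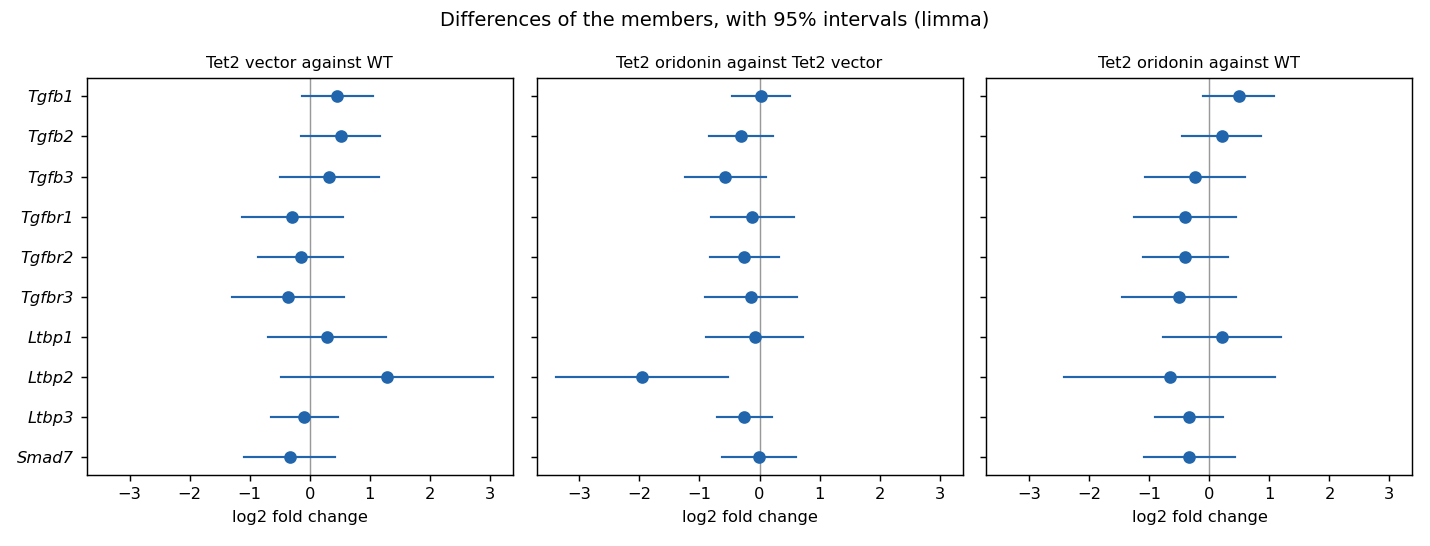
Log2 fold changes of the 10 genes in the 3 comparisons with 95% intervals from limma. Only the interval of Ltbp2 for oridonin over vector, -3.39 to -0.52, lies wholly on one side of 0, before adjustment over genes.

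Tet2+/- vector hearts had 5 of the 10 genes higher and 5 lower than the WT heart, with a median log2 fold change of 0.10, where 50.4% of all genes were higher, 49.6% were lower and the median was 0.00. The groups did not overlap in 4 genes on the higher side (Tgfb1, Tgfb2, Tgfb3, Ltbp2), against 35.3% of all genes, and in 3 on the lower side (Tgfbr1, Ltbp3, Smad7), against 32.3%. These shares are near the background. No member passed the FDR (0 of 10, against 0% of all genes), and 0 had an unadjusted p under 0.05, against 9.59% of all genes (644 genes higher and 577 lower). The voom form of limma also called 0 genes.

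With oridonin, 9 of the 10 genes were lower than in the vector hearts, where 59.8% of all genes were lower and 40.2% were higher. Their median log2 fold change was -0.20, against -0.05 over all genes. The groups did not overlap in 4 genes, all lower (Tgfb2, Tgfb3, Ltbp2, Ltbp3), against 17.8% of all genes, and in 0 genes that were higher, against 8.37%. None passed the FDR (0 of 10, against 0%), and 1, Ltbp2, had an unadjusted p under 0.05, against 2.6% of all genes. Without vector replicate 1 the sign turned for 6 of the 10. In that setting Tgfb1 stood at -0.07, Ltbp1 at 0.40, Smad7 at 0.00 and the receptors at the values above.

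Oridonin hearts had 3 of the 10 genes higher and 7 lower than the WT heart, with a median of -0.34, against -0.06 over all genes, of which 43.7% were higher and 56.3% lower. In every one of the 10 both oridonin values lay on one side of WT: Tgfb1, Tgfb2 and Ltbp1 above it, where 31.9% of all genes did so, and the other 7 below it, where 41.8% did so. Again 0 of 10 passed the FDR, against 0% of all genes, and 0 had an unadjusted p under 0.05, against 6.24% (2.68% higher and 3.56% lower). The 3 comparisons share libraries in pairs, so a gene high in the vector hearts counts toward a higher value over WT and a lower one with oridonin alike.

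Among genes that store or release latent TGF-beta, most were higher in the vector hearts than in the other groups. Of 20 tested, 14 were higher in Tet2+/- vector than in WT (median log2 fold change 0.32), against 50.4% of all genes. With oridonin, 16 were lower than with vector (median -0.44, and -0.28 without vector replicate 1), against 59.8% of all genes. In either comparison 0 passed the FDR. Thbs1, thrombospondin-1, which can activate latent TGF-beta, was at 7.59 and 8.71 CPM with oridonin, 24.9 and 15.8 CPM with vector and 7.35 CPM in WT (log2 fold change 1.43 for vector over WT, adjusted p = 0.39, and -1.28 for oridonin over vector, adjusted p = 1). Itgb6, the integrin subunit that releases TGF-beta at epithelia, was at 10.7 and 15.2 CPM with oridonin, 22.8 and 14.5 CPM with vector and 5.6 CPM in WT. Furin, the protease that cleaves the TGF-beta precursor, was lowest in the vector hearts, at 91.5 and 85.3 CPM with oridonin, 69.8 and 50.9 CPM with vector and 139 CPM in WT. Its log2 fold change was -1.22 for vector over WT (standard error 0.26, adjusted p = 0.335). Fmod, Dcn and Bgn, small proteoglycans that can bind TGF-beta, had log2 fold changes of -4.90, -0.79 and -0.75 for oridonin over vector. Fmod had 3 and 9 counts with oridonin, 195 and 169 with vector and 8 in WT. It passed the filter on low values only through the vector hearts. The size of its fold change rests on counts near the floor of 3. Fmod passed the FDR in no comparison (adjusted p = 0.309 for vector over WT and 0.394 for oridonin over vector). In oridonin over WT the median of the list was -0.15 (-0.03 without oridonin replicate 1), with Itgb6 at 1.18, Itgb5 at -0.70, Furin at -0.65 and Adamtsl2 at -0.83 (adjusted p of 0.745 to 0.791).

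With all libraries, receptor regulators and SMADs had the smallest medians, by size, of the 4 lists outside the 10 genes. This held in vector over WT and in oridonin over vector. Of 27 tested, 11 were higher in vector than in WT (median -0.05), against 50.4% of all genes. With oridonin, 23 were lower than with vector (median -0.14, against -0.05 over all genes), where 59.8% of all genes were lower, and 0 passed the FDR. Without vector replicate 1 the median of this list in vector over WT was -0.20, larger in size than the 0.04 of the activin and BMP branch. Smad6, the inhibitory SMAD of the BMP branch, was at 18.9 and 16.0 CPM with oridonin, 19.4 and 27.2 CPM with vector and 14.8 CPM in WT. Pmepa1, a membrane adaptor that dampens SMAD signalling, was at 18.1 and 23.3 CPM with oridonin, 26.5 and 36.0 CPM with vector and 24.7 CPM in WT (log2 fold change -0.59 for oridonin over vector, unadjusted p = 0.0561). Bambi, a decoy receptor, was at 13.2 and 13.7 CPM with oridonin, 17.4 and 18.5 CPM with vector and 21.2 CPM in WT. Eng, the endothelial co-receptor, was at 211 and 215 CPM with oridonin, 260 and 225 CPM with vector and 178 CPM in WT, and Tab2, an adaptor of the kinase TAK1, at 64.2 and 84.2, 83.1 and 67.5 and 114 CPM in the same groups. Among the remaining genes of the naming rule, Tgfbrap1 had a log2 fold change of -0.54 for vector over WT, Smad1 one of -0.45 for oridonin over vector, and Smurf1 and Smad4 one of -0.48 each for oridonin over WT.

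**Figure D4:**
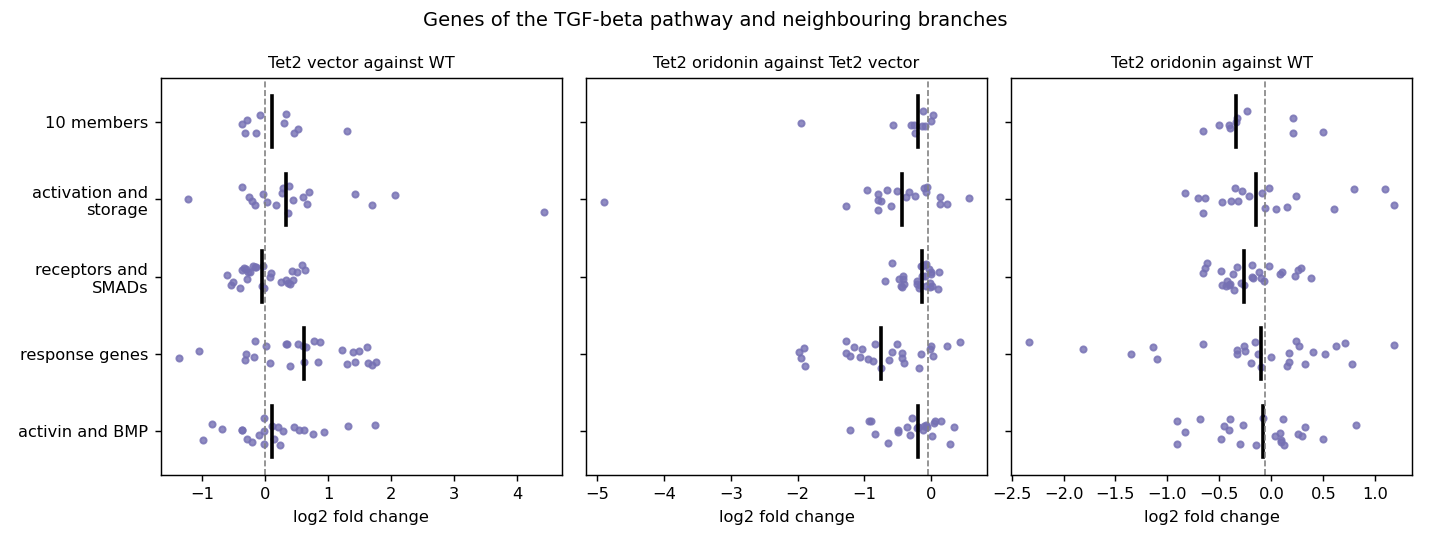
Log2 fold changes of every tested gene of the 5 lists in the 3 comparisons; points are genes, black bars list medians and the dashed line the median of all genes tested. Response genes have medians of 0.62, -0.75 and -0.10 from left to right, and 0 genes passed the FDR.

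Textbook response genes of TGF-beta had larger median differences than the 10 genes in vector over WT and in oridonin over vector, which was not tested. Of 27 tested, among them Ltbp2 and Smad7, 21 were higher in Tet2+/- vector than in WT (median 0.62), against 50.4% of all genes. Lower with oridonin than with vector were 24 (median -0.75), against 59.8% of all genes, with 0 past the FDR in either comparison. At an unadjusted p under 0.05 there were 10 higher and 2 lower in vector over WT, and 13 lower and 0 higher in oridonin over vector, against 5.06%, 4.53%, 1.93% and 0.668% of all genes. This list holds collagens whose differences in these hearts were known when it was written. Postn, a matrix protein of activated fibroblasts, had a log2 fold change of 1.63 for vector over WT (standard error 0.32, adjusted p = 0.325) and of -1.88 for oridonin over vector (standard error 0.26, adjusted p = 0.649). The fibrillar collagen genes Col3a1 and Col1a1 stood at 1.76 and 1.39 in vector over WT, and at -1.06 and -0.87 in oridonin over vector, where Col1a2 was at -1.03. In oridonin over WT, Col3a1 was still higher at 0.71 (adjusted p = 0.721) and Col1a1 at 0.52 (adjusted p = 0.79), while Col1a2 was at -0.15.

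Not every response gene went with the collagens. Ccn2, connective tissue growth factor, was at 35.7 and 25.2 CPM with oridonin, 57.5 and 92.6 CPM with vector and 151 CPM in WT, so that the WT heart was highest (log2 fold change -2.33 for oridonin over WT, standard error 0.36, adjusted p = 0.538). Cdkn1a, which encodes p21, a brake on the cell cycle, was at 14.2 and 18.2 CPM with oridonin, 14.7 and 16.9 CPM with vector and 40.9 CPM in WT. In 10 of 10 fibroblast markers both oridonin values lay below both vector values, against 17.8% of all genes tested. They summed to 2010 and 1850 CPM with oridonin, 3130 and 3240 CPM with vector and 2940 CPM in WT, with 0 at zero. Gsn alone held much of that sum, at 1180 and 1010 CPM with oridonin, 1680 and 1690 CPM with vector and 1940 CPM in WT. Gsn and Pdgfra were highest in WT, and the other markers of the list were highest in a vector heart. Activated fibroblast markers summed to 281 and 153 CPM with oridonin, 636 and 609 CPM with vector and 208 CPM in WT over 7 genes, with 0 at zero. Acta2, which is also on the smooth muscle list, was the largest part of that sum in every library. It was at 215 and 88.6 CPM with oridonin, 480 and 214 CPM with vector and 105 CPM in WT. Of the 7, 5 were higher in both vector hearts than in both oridonin hearts, against the same 17.8% of all genes tested. Acta2 and Fap were not, and Fap was highest in WT. Endothelial markers summed to 1640 and 1700 CPM with oridonin, 1510 and 1590 CPM with vector and 1550 CPM in WT, but single genes went different ways. Kdr was at 255 and 321 CPM with oridonin, 255 and 202 CPM with vector and 184 CPM in WT, whereas Cdh5 was at 243 and 254, 206 and 206, and 278 CPM in the same groups. Vwf ran from 31.9 to 133 CPM over the 5 libraries. Epicardial markers summed to 4.24 to 7.41 CPM over the 5 libraries, and fat cell markers to 1.3 and 7.55 CPM with oridonin, 21.6 and 1.5 CPM with vector and 1.52 CPM in WT. Both fibroblast lists share genes with the response list, and their part in it was not tested.

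**Figure D5:**
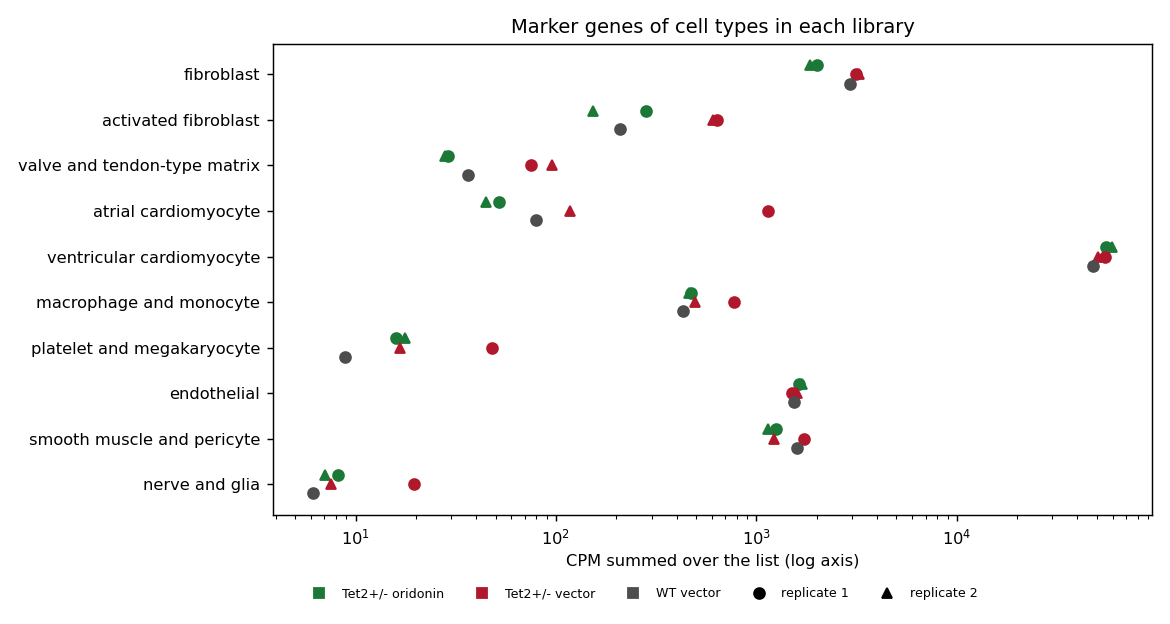
CPM summed over each list of cell type markers in every library, on a log axis; colours are groups (2, 2 and 1 libraries) and shapes are replicates. Vector replicate 1 stands apart for atrial markers at 1150 CPM, and fibroblast sums are 1850 to 2010 CPM with oridonin against 3130 to 3240 CPM with vector.

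The neighbouring activin and BMP branch lay near the background against WT. Of 23 tested genes, 12 were higher in vector (median 0.11, and 0.04 without vector replicate 1), against 50.4% of all genes. With oridonin, 17 of 23 were lower than with vector, where 59.8% of all genes were lower, and 0 passed the FDR. The median with oridonin was -0.20, and -0.42 without vector replicate 2 or -0.13 without vector replicate 1. Fstl1, a secreted glycoprotein of activated fibroblasts, was at 73.4 and 78.9 CPM with oridonin, 159 and 118 CPM with vector and 71.3 CPM in WT. Inhba, the activin A subunit, had 17 and 18 counts with oridonin, 51 and 25 with vector and 10 in WT. Bmp6 was at 36.3 and 35.9 CPM with oridonin, 42.5 and 41.3 CPM with vector and 67.7 CPM in WT (log2 fold change -0.91 for oridonin over WT, adjusted p = 0.649). Id2, a target of BMP signalling, was at 7.25 and 7.27 CPM with oridonin, 15.8 and 11.6 CPM with vector and 8.8 CPM in WT. Acvr1 and Gdf15 had log2 fold changes of -0.50 and -1.22 for oridonin over vector, and Chrd and Acvr2b of -0.91 and -0.83 for oridonin over WT, all with unadjusted p above 0.05. Gdf15 had 9 and 12 counts with oridonin, 16 and 43 with vector and 10 in WT, and passed the filter on low values only through the vector hearts. Bmp10, an atrial ligand below the filter, had 1 and 0 counts with oridonin, 2899 and 5 with vector and 1 in WT.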

How the data were processed

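RNA was purified on poly-T beads and turned into libraries with NEBNext Ultra reagents, per the labels' protocols. The genome build was mm10 (GRCm38), as the submitters' processing notes name it. No source used here names the aligner or counter. What the authors deposited is 1 matrix of log2 expression for 17818 symbols in 5 columns, all of them used. It follows log2 CPM with 0.5 added to each count. In the Tet2+/- columns a weight of 0.75 belongs to the library and 0.25 to its fellow replicate. With this undone, 99.92% to 99.94% of genes gave a whole count within 0.01, against at most 10.37% at other weights. The WT column is fitted by pairs of whole counts at the same weight for 99.84% of 3649 genes, and was used as it stood. How the blends arose is unknown.

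The main test was limma 3.58.1 in R 4.3.3 (trend, robust) on the unblended log2 CPM, with group as the only term, all 5 libraries in 1 fit and Benjamini-Hochberg adjustment over the 12734 genes with at least 1 CPM (0.5 added) in at least 2 libraries. The single WT library was taken to vary as the other groups do, which 1 blended column cannot show. The procedure was tested on simulated data. Another 16 settings were tried, with their effect given at the end. Exon lengths and places are from GENCODE vM21, promoters from RefSeq. The members and lists were chosen with earlier results of these data known. Named genes are the 10 members, the 4 smallest unadjusted p of each list and comparison, the 4 nearest patterns of 2 members, marker genes and, outside that rule, Ltbp4 and Tet2 (Bmp10 is a marker).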

Additional observations from a re-analysis of the deposited data

How the results depend on the processing

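No result here rests on a gene that passed the FDR, since limma called 0 genes in each comparison (1221, 331 and 794 at an unadjusted p under 0.05 for vector over WT, oridonin over vector and oridonin over WT), and limma voom called 0 too, as did median-of-ratios scaling, totals without mitochondrial counts, a prior count of 2, no filter, a filter of 5 CPM and empirical Bayes without the robust option. On the deposited blended values the counts were 2312, 76 and 996. In fits of the 2 groups alone they were 103 for vector over WT and 1 for oridonin over WT. Leaving out 1 library gave 2 to 107, 3 to 32 and 0 to 24 in the same order, and 0 for oridonin over vector without the WT library; a lone remaining library was assumed to vary like the others. With the title number as a replicate block they were 10, 9 and 6. Same-numbered deviations in the vector and oridonin groups correlated at -0.3 over genes, which does not settle whether the numbers pair the samples. A crossed block, added after the data were seen, gave 425, 43 and 181. Leaving mitochondrial counts out of the totals moved the median of all genes from 0.00 to 0.10 in vector over WT and from -0.06 to 0.05 in oridonin over WT. The member signs that turned were those of Ltbp3 over WT (0.00) and Smad7 with oridonin (0.01) under that scaling, and Smad7 (0.05) under median-of-ratios scaling. Leaving out 1 library turned 3 members in vector over WT: Ltbp1 ran from -0.19 (without vector replicate 1) to 0.78, Tgfbr2 from -0.43 to 0.13 and Tgfbr3 from -0.82 to 0.10 (both highest without vector replicate 2). In oridonin over vector, 6 turned without vector replicate 1, and 3 of these (Tgfb1 -0.01, Tgfbr1 0.19, Smad7 0.29) also without oridonin replicate 1. Their ranges were -0.07 to 0.13 for Tgfb1, -0.42 to 0.19 for Tgfbr1 (0.07 without vector replicate 1), -0.53 to 0.03 for Tgfbr2, -0.60 to 0.32 for Tgfbr3, -0.57 to 0.40 for Ltbp1 and -0.31 to 0.29 for Smad7 (0.00 without vector replicate 1). The median of receptor regulators and SMADs was 0.05 in vector over WT and -0.15 in oridonin over WT without mitochondrial counts, and -0.33 in oridonin over WT with the replicate block. Leaving out 1 library, it ran from -0.20 to 0.10, from -0.31 to -0.04 and from -0.41 to -0.07 in the 3 comparisons, and the median of response genes in oridonin over vector ran from -0.77 to -0.54. Without oridonin replicate 1 the median of response genes in oridonin over WT was -0.01, against -0.10 with all libraries. The causes were not tested. The members had 50 to 1505 counts per library, with Ltbp2 at the low end.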
